A study of Caenorhabditis elegans with 8 samples.

Results

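The genes described here are *msh-2* (WBGene00003418), *msh-6* (WBGene00003422), *mlh-1* (WBGene00003373), *pms-2* (WBGene00004064) and *exo-1* (WBGene00009731) of mismatch repair and *smc-5* (WBGene00016151) and *smc-6* (WBGene00010056), which encode the SMC-5/6 pair of chromosome proteins. They were chosen by name for their function, though with earlier results of these data known, and all 7 were found among the 46739 gene IDs of the deposited tables. Germlines were extracted from *nmad-1*(ok3133) worms, a single deletion strain, and from wild-type (WT) N2 worms at 25°C and at 20°C, all grown on dam-dcm- bacteria, and their mRNA was sequenced. The groups are *nmad-1* at 25°C, WT at 25°C, *nmad-1* at 20°C and WT at 20°C, with 2 libraries in each and germlines of 100 worms per group, labelled as L4 larvae. The genotypes differ in the deletion of *nmad-1*, and both were set side by side at each temperature to ask which germline genes are misregulated without NMAD-1, a candidate DNA demethylase.

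Mismatch repair removes bases that were paired wrongly during DNA replication. MSH-2 and MSH-6 form the MutS heterodimer that recognises a mismatch, MLH-1 and PMS-2 form the MutL heterodimer that is recruited to it and nicks the new strand, and the exonuclease EXO-1 cuts the strand back so that it can be resynthesised. EXO-1 also helps to resect meiotic double-strand breaks. SMC-5 and SMC-6 are long coiled-coil ATPases related to cohesin and condensin, and in the *C. elegans* germline their complex is known for helping to resolve recombination intermediates between sister chromatids.

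Several features of the libraries bear on the values. The deposited value is an expected read count divided by a size factor of its library, and the tables of the 2 temperatures were normalized separately, so deposited values are set side by side only within a temperature. Depth, estimated from the value of 1 read, ran between 18451560 and 33429410 reads, and each of the 7 genes had at least 1460 estimated reads in every library, where counting error alone is at most 2.62%. *nmad-1* itself was at 170 and 171 in *nmad-1* and at 764 and 753 in WT at 25°C, and at 114 and 131 in *nmad-1* and 540 and 471 in WT at 20°C. Which part of the gene these remaining reads cover was not analysed here. *nmad-1* library A at 20°C stood apart, with 36.2% of its values in ribosomal RNA genes against 23.3% to 29.2% in the other libraries, and with 10 muscle markers summing to 5736 ppm (parts per 1000000 of a library's summed values outside ribosomal RNA genes), against 1933 in *nmad-1* library B and 2017 and 2753 in WT at 20°C. Library B stood apart in the sum of the 9 intestine markers found, at 12166 ppm, against 4721 in library A and 6832 and 7928 in WT at 20°C. The largest terms of that sum were *vit-2* and *vit-6*, at deposited values of 107886 and 109283 in library B and 27165 and 28149 in library A. The other markers went both ways: *cpr-1* was higher in library B (4665 against 1165), *asp-1* was close (13862 against 13655) and *ifb-2* was lower (1016 against 2127). At 25°C the summed values were 2.25e+07 and 2.19e+07 in *nmad-1* and 3.31e+07 and 3.29e+07 in WT, so the scaling of the libraries weighs on every comparison at that temperature, and results are given both as deposited and with every library brought to the same total outside ribosomal RNA. In libraries made from whole germlines, fewer cells of a type and less RNA per cell cannot be told apart.

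Each of the 7 genes had lower deposited values in *nmad-1* than in WT germlines at 25°C. As a share of the RNA outside ribosomal RNA, *mlh-1* was called higher in *nmad-1*, as were 48.9% of all genes tested, and the other 6 did not pass the test. *msh-6*, which encodes the mismatch-binding partner of MSH-2, was at 4788 and 4709 in *nmad-1* and at 7835 and 7842 in WT. *msh-2*, which encodes the other subunit of that dimer, was at 3195 and 3053 in *nmad-1* and at 4737 and 4623 in WT. Both genes thus had *nmad-1* libraries close to each other and well below both WT libraries.

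Of the MutL genes, *pms-2* was at 2088 and 1955 in *nmad-1* and at 3231 and 3137 in WT. *mlh-1*, the partner of *pms-2*, was at 2352 and 2291 in *nmad-1* and at 2737 and 2815 in WT. The gap between the genotypes was narrow for *mlh-1* and wide for *pms-2*, and neither gene's groups overlapped. *exo-1*, the exonuclease gene, was at 1794 and 1526 in *nmad-1* and at 2480 and 2558 in WT, and its *nmad-1* libraries lay farther apart than those of the other genes in proportion to their level.

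*smc-6* had the highest values of the 7 genes, with 6671 and 6742 in *nmad-1* and 10724 and 10913 in WT. *smc-5* was at 4005 and 4175 in *nmad-1* and at 7166 and 6687 in WT. Both *nmad-1* libraries of both SMC genes lay below both WT libraries, by more than the libraries of a genotype differed.

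**Figure D1:**
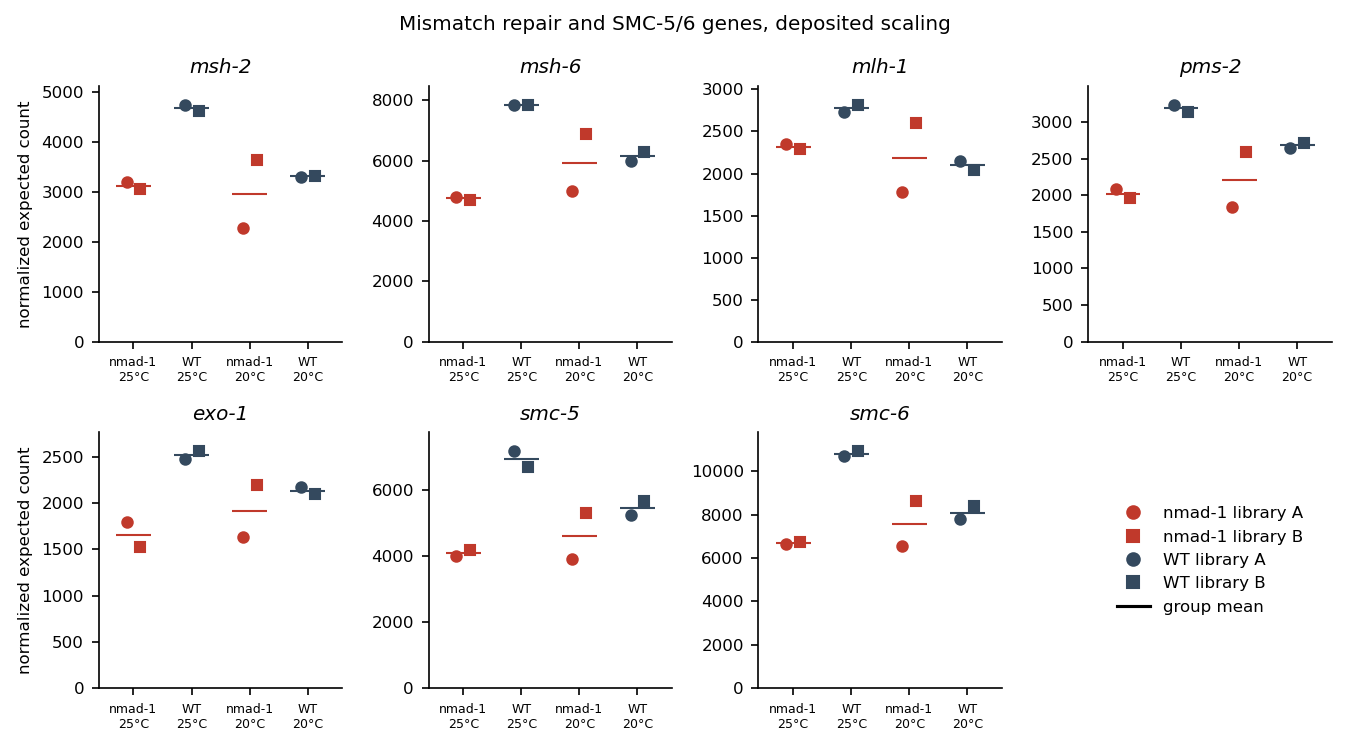
Deposited value (normalized expected count, linear axis from 0) of the 7 genes in each library, with *nmad-1* in red and WT in dark blue, circles for library A, squares for library B and a line at the mean of the 2 libraries. At 25°C every *nmad-1* point lies below both WT points, whereas at 20°C *nmad-1* library A lies low and library B lies near or above the WT points; the 2 temperatures were normalized separately.

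The fall at 25°C passed the test for 7 of 7 genes (limma, Benjamini-Hochberg adjusted over 11955 genes), where 70.8% of all genes tested were called, 38% lower and 32.8% higher. For *msh-6* the log2 fold change was −0.72 (SE 0.085, adjusted p = 0.00034) and for *msh-2* it was −0.58 (SE 0.088, adjusted p = 0.00083). It was −0.66 for *pms-2* (SE 0.093, adjusted p = 0.00064) and −0.26 for *mlh-1*, with a 95% interval of −0.47 to −0.05 and an adjusted p of 0.031. The call of *mlh-1* was lost without *nmad-1* library B (adjusted p = 0.071), without WT library A (0.12) or without WT library B (0.18), and not for the other 6 genes. Each of these fits has a lone library in 1 genotype, so its spread comes from the pair of the other genotype. For *exo-1* it was −0.61 (SE 0.11, adjusted p = 0.0017), for *smc-5* −0.76 (SE 0.090, adjusted p = 0.00035) and for *smc-6* −0.69 (SE 0.086, adjusted p = 4e-04). The median over the 7 genes was −0.66, beside −0.09 over all genes tested, and 12.2% of all genes had a lower fold change than *smc-5*, the gene with the lowest of the 7, while 42.8% had a lower one than *mlh-1*. The groups did not overlap for 7 of 7 genes, all with *nmad-1* lower, beside 88.3% of all genes in either direction, 46.7% lower and 41.6% higher.

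These falls depended on how the libraries were scaled. With the upper quartile of each library as the scale, 6 of 7 genes were still called lower (limma, median log2 fold change −0.46), all but *mlh-1*, where 24.3% of all genes were called lower and 36.5% higher. Over all genes the same total outside ribosomal RNA shifted the median log2 fold change at 25°C to 0.48, and 5846 genes were then called higher and 697 lower, against 3917 higher and 4545 lower with the deposited scaling. On that scale only *mlh-1* passed the test, and it was higher in *nmad-1*: its log2 fold change was 0.31 (limma, adjusted p = 0.03), where 54.7% of all genes were called, 48.9% higher and 5.83% lower. The other fold changes were −0.01 for *msh-2*, −0.15 for *msh-6*, −0.08 for *pms-2*, −0.03 for *exo-1*, −0.19 for *smc-5* and −0.12 for *smc-6*, and the smallest adjusted p among them was 0.16. Scaled on 38 genes of germ cell development, all 7 fold changes were above 0, between 0.0022 for *smc-5* and 0.50 for *mlh-1*, and again *mlh-1* alone passed (adjusted p = 0.0016 in limma), where 65.6% of all genes were called higher and 3% lower. This scale raises every fold change, because those 38 genes were themselves low in *nmad-1* with the deposited scaling (median log2 fold change −0.74). The order of the genes was the same on each scale, since a scale moves all of them alike: *mlh-1* lay highest and *smc-5* lowest. For the same reason the place of the 7 genes below the median of all genes could not change with the scale, and it is no separate check. Their median was −0.08 beside 0.48 on the same total outside ribosomal RNA and 0.11 beside 0.67 on the germ cell development genes.

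**Figure D2:**
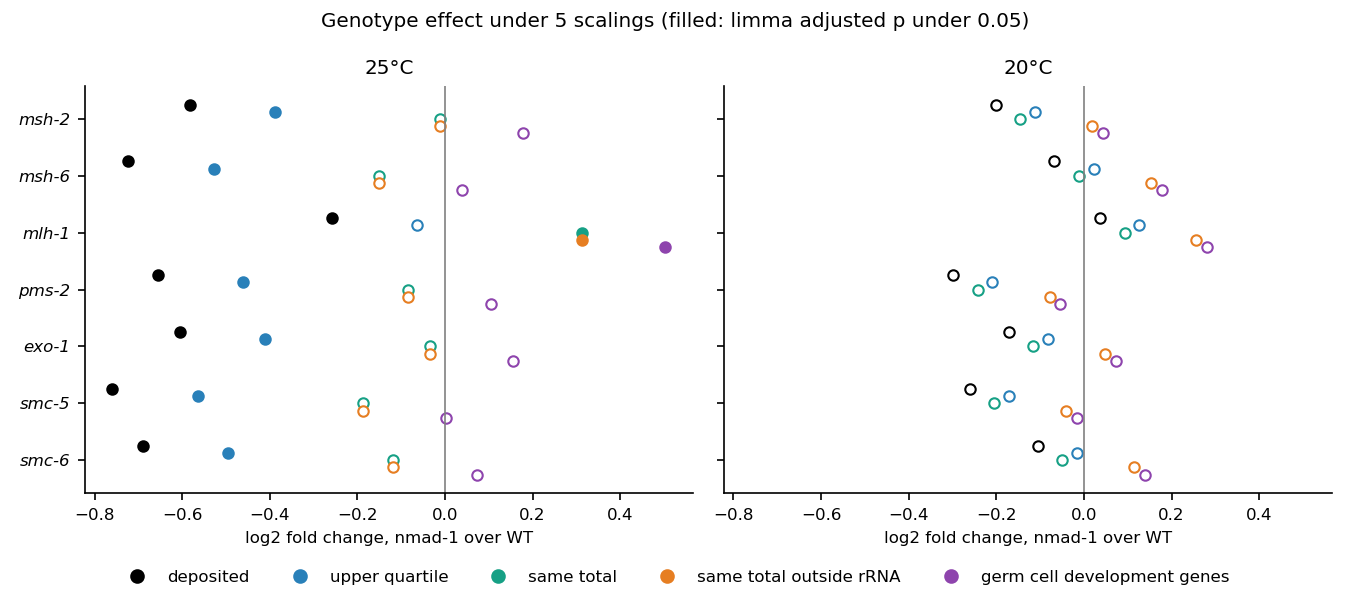
Log2 fold change (*nmad-1* over WT) of the 7 genes at 25°C (left) and 20°C (right) under 5 scalings of the libraries, as coloured points; filled points passed the limma test at an adjusted p under 0.05 and open points did not. At 25°C the points of the deposited scaling run between −0.76 and −0.26, those of the germ cell development scaling lie at or above 0, and *mlh-1* is the rightmost gene under every scaling.

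Shares of the total outside ribosomal RNA show the same data without the deposited size factors, in ppm. At 25°C *mlh-1* was at 145 and 138 ppm in *nmad-1* and at 117 and 111 ppm in WT, with both *nmad-1* libraries higher. *msh-6* was at 296 and 285 ppm in *nmad-1* and at 334 and 311 ppm in WT, *smc-5* at 247 and 252 against 306 and 265, and *smc-6* at 412 and 408 against 458 and 432. The *nmad-1* libraries of these 3 genes lay just below the WT libraries, without passing the test above.

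The other 3 genes overlapped between the genotypes on this scale. *msh-2* was at 197 and 185 ppm in *nmad-1* and at 202 and 183 ppm in WT, *pms-2* at 129 and 118 against 138 and 124, and *exo-1* at 111 and 92.3 against 106 and 101. The groups thus did not overlap for 4 of 7 genes, 1 of them higher in *nmad-1*, beside 79.9% of all genes tested in either direction, 65.7% higher and 14.2% lower. The 7 genes together took 1538 and 1478 ppm in *nmad-1* and 1660 and 1528 ppm in WT.

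Markers of other tissues moved with genotype at 25°C. The 10 muscle markers summed to 1556 and 1759 ppm in *nmad-1* and to 457 and 599 ppm in WT, the 9 intestine markers found to 5016 and 17133 against 1395 and 2376, and the 8 neuron markers to 395 and 335 against 174 and 155. *vit-2* and *vit-6* were again the largest terms of the intestine sum, in every library at 25°C. Of the 22 sperm markers 15 were tested and 13 were called higher, with a median log2 fold change of 3.84. They summed to 294 and 304 ppm in *nmad-1* and 159 and 139 ppm in WT, sums in which *cpb-1*, a gene named after its values were seen, was the largest term in every library at 25°C. The 8 hypodermis markers summed to 600 and 579 against 356 and 522, and the 8 markers of the gonadal sheath and spermatheca overlapped, at 921 and 1121 against 1191 and 1004. Genes within these 2 lists moved in both directions. With the deposited scaling 2 of 7 hypodermis markers tested were called higher and 1 lower. Of 8 sheath and spermatheca markers 3 were called higher and 2 lower, beside 32.8% of all genes higher and 38% lower. The 38 germ cell development genes summed to 23420 and 21750 ppm in *nmad-1* and 27330 and 27055 ppm in WT, and with the deposited scaling 38 of 38 were called lower, beside 38% of all genes, with a median log2 fold change of −0.74 beside the −0.66 of the 7 repair genes. The part of these shifts in the values of the repair genes was not tested.

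**Figure D3:**
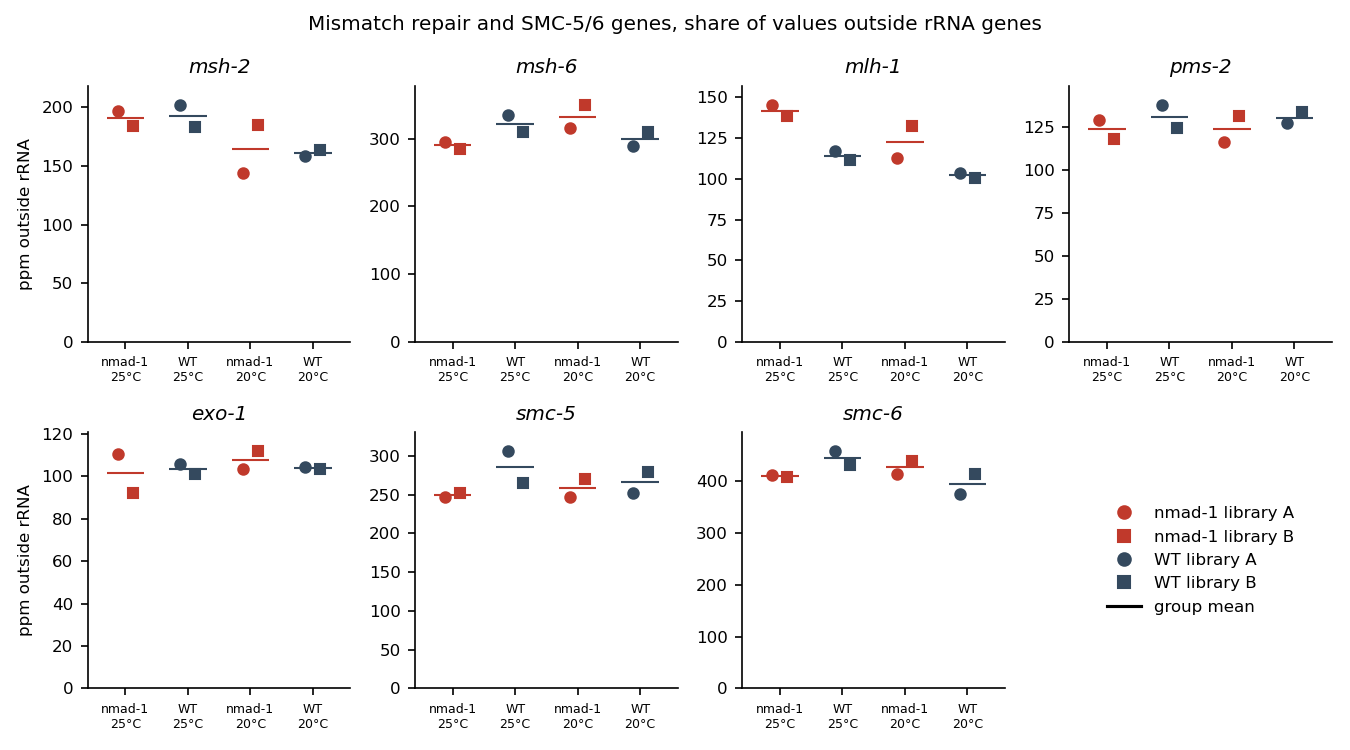
Values of the 7 genes in ppm of the summed values outside ribosomal RNA genes (linear axis from 0) in each library, with *nmad-1* in red and WT in dark blue, circles for library A, squares for library B and a line at the mean. *mlh-1* at 25°C is higher in both *nmad-1* libraries (145 and 138) than in both WT libraries (117 and 111), and the groups of *msh-2*, *pms-2* and *exo-1* overlap.

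At 20°C none of the 7 genes passed the test with the deposited scaling (limma, 0 of 7 at an unadjusted p of 0.05 as well), where 0.481% of all genes were called, 59 of 12260 (0.343% higher and 0.139% lower), and 844 genes had an unadjusted p under 0.05. The *nmad-1* libraries disagreed with each other. *msh-2* was at 2276 in *nmad-1* library A and 3634 in library B, and at 3289 and 3325 in WT. *msh-6* was at 4986 and 6874 in *nmad-1* and at 5986 and 6287 in WT. For both genes library A lay below the WT libraries and library B above them.

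*mlh-1*, at 1782 and 2595 in *nmad-1* and 2149 and 2044 in WT, showed the same split, and so did *exo-1*, at 1633 and 2197 in *nmad-1* and 2172 and 2097 in WT, and *smc-6*, at 6542 and 8635 in *nmad-1* and 7788 and 8394 in WT. *smc-5* was at 3902 and 5315 in *nmad-1* and at 5243 and 5674 in WT, so that library B lay between the WT libraries. *pms-2*, at 1834 and 2584 in *nmad-1* and 2637 and 2718 in WT, was the 1 gene of 7 whose groups did not overlap, beside 35.8% of all genes in either direction, 19.1% with *nmad-1* lower and 16.6% with *nmad-1* higher.

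The log2 fold changes at 20°C ran from −0.30 for *pms-2* and −0.26 for *smc-5* to 0.04 for *mlh-1*, with a median of −0.17 beside −0.05 over all genes tested, and their adjusted p-values were between 0.95 and 0.99. The 95% interval held the value measured at 25°C for 5 of the 7 genes, as for *msh-2* (−0.73 to 0.33). It did not for *msh-6* (−0.58 to 0.45, against −0.72 at 25°C) or *smc-6* (−0.61 to 0.40, against −0.69). Without *nmad-1* library A the fold changes of *msh-2*, *msh-6*, *exo-1* and *smc-6* turned to 0.14, 0.16, 0.04 and 0.09. Without library B, which leaves library A as the lone *nmad-1* sample, 6 of 7 genes were called lower and *mlh-1* was at −0.23, where 25.6% of all genes were called lower and 8.45% higher. A lone library is assumed in such a fit to vary like the others.

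Brought to the same total outside ribosomal RNA, the split between the *nmad-1* libraries at 20°C was narrower, but library A was still the lower for each of the 7 genes. *msh-6* was then at 316 and 350 ppm in *nmad-1* and at 289 and 310 ppm in WT. *mlh-1* was at 113 and 132 ppm in *nmad-1* and at 104 and 101 ppm in WT, and *smc-6* at 414 and 439 against 375 and 413. For these 3 genes both *nmad-1* libraries lay above both WT libraries, beside 44.1% of all genes without overlap, 34.3% higher and 9.78% lower. None passed the test (limma, 0 of 12260 genes called on that scale, 0%), and the smallest adjusted p among the 7 was 0.52.

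*msh-2* was at 144 and 185 ppm in *nmad-1* and 159 and 164 in WT, *pms-2* at 116 and 132 against 127 and 134, *exo-1* at 103 and 112 against 105 and 103, and *smc-5* at 247 and 270 against 253 and 279. The groups of these 4 genes overlapped. Together the 7 genes took 1453 and 1620 ppm in *nmad-1* and 1411 and 1504 ppm in WT.

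The difference between the genotype effects at the 2 temperatures was tested as an interaction over the 8 libraries. The effect at 25°C minus that at 20°C was −0.66 for *msh-6* (adjusted p = 0.10), −0.58 for *smc-6* (0.13), −0.50 for *smc-5* (0.19), −0.43 for *exo-1* (0.26), −0.38 for *msh-2* (0.36), −0.36 for *pms-2* (0.34) and −0.30 for *mlh-1* (0.44). So 0 of 7 genes passed (limma), beside 9.32% of all genes (8.07% with a higher and 1.25% with a lower effect at 25°C). An unadjusted p under 0.05 was reached by 2 of 7 genes, *msh-6* (0.018) and *smc-6* (0.0267), beside 3182 of all 11265 genes tested. Without *nmad-1* library A at 20°C, 7 of 7 genes passed with a lower effect at 25°C, beside 31.5% of all genes with a lower and 20.2% with a higher effect (5827 genes in all). That fit has a lone *nmad-1* library at 20°C, and the spread comes from the other 3 groups. With the same total outside ribosomal RNA the 7 values lay between −0.30 and 0.057 and 0 of 7 passed, beside 6.61% of all genes (6.03% higher and 0.586% lower); the smallest adjusted p was 0.14.

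Ratios between genes whose products work as partners do not depend on the scaling of a library. The ratio of *mlh-1* to *pms-2* was 1.13 and 1.17 in *nmad-1* and 0.847 and 0.898 in WT at 25°C, and 0.972 and 1.0 in *nmad-1* and 0.815 and 0.752 in WT at 20°C. It was higher in both *nmad-1* libraries than in both WT libraries at each temperature, *nmad-1* library A at 20°C included. The mean log2 ratio was 0.20 ± 0.040 in *nmad-1* and −0.20 ± 0.059 in WT at 25°C (SD, n = 2 each), a difference of 0.40, and −0.018 ± 0.034 in *nmad-1* and −0.35 ± 0.082 in WT at 20°C, a difference of 0.34. Over both temperatures the difference was 0.37, with p = 0.0556 in the two-sided exact permutation test within temperature, which is the smallest p this design allows, and 0.167 after Benjamini-Hochberg adjustment over 3 partner pairs. Within 1 temperature the smallest p is 0.333.

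The shift of *mlh-1* was relative to other genes of the 7 and not particular to this pair. Over all genes, 42.8% had a lower deposited fold change than *mlh-1* at 25°C and 58.5% at 20°C. Of all 21 pairs among the 7 genes, *mlh-1* to *smc-5* (log2 difference 0.40 over both temperatures), *mlh-1* to *exo-1* (0.28) and *msh-2* to *mlh-1* (−0.28) had the same exact permutation p of 0.0556 (0.259 after Benjamini-Hochberg adjustment over 21 pairs). In the other partner pairs the genotypes overlapped or differed less. The ratio of *msh-2* to *msh-6* was 0.667 and 0.648 in *nmad-1* and 0.605 and 0.590 in WT at 25°C, and 0.456 and 0.529 in *nmad-1* and 0.549 and 0.529 in WT at 20°C. The log2 difference was 0.14 at 25°C and −0.13 at 20°C, of opposite sign, and 0.0029 over both (exact permutation p = 1). At 20°C the difference lay mostly in *nmad-1* library A, with a log2 ratio of −1.13. *nmad-1* library B was at −0.919, as was WT library B. The ratio of *smc-5* to *smc-6* was 0.600 and 0.619 in *nmad-1* and 0.668 and 0.613 in WT at 25°C, where the groups overlapped, and 0.597 and 0.616 in *nmad-1* and 0.673 and 0.676 in WT at 20°C, where *nmad-1* was lower. Its log2 difference was −0.11 over both temperatures (exact permutation p = 0.111, adjusted 0.167).

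**Figure D4:**
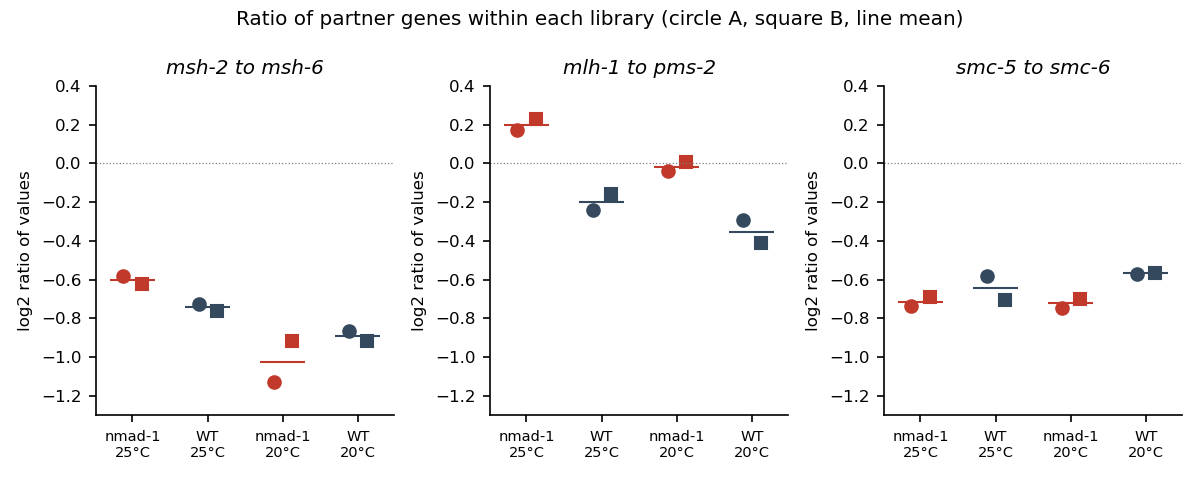
Log2 ratio of the values of partner genes within each library, for *msh-2* to *msh-6* (left), *mlh-1* to *pms-2* (middle) and *smc-5* to *smc-6* (right), with *nmad-1* in red and WT in dark blue, circles for library A, squares for library B and a line at the mean. In the middle panel the *nmad-1* points lie above the WT points at each temperature, by 0.40 at 25°C and 0.34 at 20°C on average.

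Levels were compared between genes per kilobase of coding sequence, in ppm outside ribosomal RNA. The coding lengths are 2547 bases for *msh-2*, 3558 for *msh-6*, 2274 for *mlh-1*, 2415 for *pms-2*, 1917 for *exo-1*, 3228 for *smc-5* and 3447 for *smc-6*. *msh-2* and *msh-6* lie on chromosome I, *smc-5* and *smc-6* on chromosome II, *mlh-1* and *exo-1* on chromosome III and *pms-2* on chromosome V. *smc-6* was the most abundant in every group, at 118.9 ± 0.94 in *nmad-1* and 129 ± 5.2 in WT at 25°C and at 124 ± 5.2 in *nmad-1* and 114 ± 7.8 in WT at 20°C (SD, n = 2 each). *msh-6* followed with group means of 81.6 to 93.5 and *smc-5* with 77.4 to 88.4, and the libraries of these genes overlapped in WT at both temperatures but not in *nmad-1*, where *msh-6* was the higher. The libraries of *smc-5* and *msh-2* overlapped in *nmad-1* at 25°C and in no other group. *msh-2* came next, at 75.0 ± 3.6 in *nmad-1* and 75.6 ± 5.3 in WT at 25°C and at 64.6 ± 11 in *nmad-1* and 63.3 ± 1.4 in WT at 20°C.

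The lowest levels were those of *mlh-1*, *exo-1* and *pms-2*, and their order differed between the genotypes. *mlh-1* was at 62.4 ± 2.1 ppm per kilobase in *nmad-1* and 50.2 ± 1.7 in WT at 25°C, and at 53.8 ± 6.0 in *nmad-1* and 44.9 ± 0.92 in WT at 20°C. *exo-1* was at 53.0 ± 6.8 in *nmad-1* and 54 ± 1.7 in WT at 25°C and at 56.1 ± 3.1 in *nmad-1* and 54.2 ± 0.51 in WT at 20°C. *pms-2* was at 51.2 ± 3.2 in *nmad-1* and 54.3 ± 4.0 in WT at 25°C and at 51.3 ± 4.5 in *nmad-1* and 54 ± 2.0 in WT at 20°C. *exo-1* and *pms-2* did not differ beyond their spread in any group, and *mlh-1* had the lowest mean of the 3 genes in WT at both temperatures and the highest in *nmad-1* at 25°C.

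Between the temperatures, shares were compared as a description with no test, because each table was normalized on its own. In WT germlines *msh-2* was higher at 25°C (202 and 183 ppm) than at 20°C (159 and 164 ppm), and *mlh-1* was higher at 25°C (117 and 111 ppm) than at 20°C (104 and 101 ppm). *smc-6* was at 458 and 432 ppm in WT at 25°C and at 375 and 413 ppm in WT at 20°C, and *msh-6* at 334 and 311 against 289 and 310, also without overlap. *smc-5* (306 and 265 at 25°C, 253 and 279 at 20°C), *pms-2* (138 and 124 at 25°C, 127 and 134 at 20°C) and *exo-1* (106 and 101 at 25°C, 105 and 103 at 20°C) overlapped between the temperatures in WT. In *nmad-1* germlines *msh-6* was lower at 25°C (296 and 285 ppm) than at 20°C (316 and 350 ppm), and *mlh-1* was higher at 25°C (145 and 138 ppm) than at 20°C (113 and 132 ppm). *smc-6* was lower, at 412 and 408 ppm at 25°C and 414 and 439 ppm at 20°C, and the other 4 genes overlapped. Groups of the 2 temperatures did not overlap in *nmad-1* for 36.7% of all genes higher at 25°C and 19.9% lower, and in WT for 27.2% higher and 45.6% lower.

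Some of the 7 genes share ground with a neighbour in the annotation. *pms-2* overlaps *nhr-101* by 126 bases and *smc-5* overlaps *C27A2.8* by 90 bases on the opposite strand, and *exo-1* overlaps *myo-6*, a myosin heavy chain gene, by 21 bases on the same strand. Whether strand was used in the counting is not given in the sources used here. *nhr-101* was at 4.39 to 36.4 and *C27A2.8* at 0 to 9.95 over the 8 libraries, small beside *pms-2* (1834 to 3231) and *smc-5* (3902 to 7166). *myo-6* was at 43.9 to 611, beside 1526 to 2558 for *exo-1*.

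The rest of the pathway was followed in lists of genes written down by function, with earlier results of these data known. *him-14* and *msh-5* encode the MutS proteins of meiosis, which act in crossover formation and not in mismatch repair. At 25°C *him-14* was at 950 and 934 in *nmad-1* and 1674 and 1580 in WT, which gave a log2 fold change of −0.79 (adjusted p = 0.00046 in limma), and *msh-5* was at 1635 and 1657 in *nmad-1* and 3021 and 2754 in WT, which gave −0.81 (adjusted p = 0.00036). Both fell, by about as much as *smc-5*. Of the genes that fill in and seal the excised strand, which encode the sliding clamp, its loader, replication protein A, DNA polymerase delta and a ligase, 11 of 12 were found, and 11 of 11 were called lower, beside 38% of all genes at this temperature and scaling, with a median log2 fold change of −0.67. The smallest p was that of *pcn-1*, the sliding clamp gene, at 8232 and 8111 in *nmad-1* and 13898 and 16186 in WT (log2 fold change −0.88, adjusted p = 0.00033).

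Of the SMC-5/6 partners, the non-SMC subunits of the complex, 3 of 5 listed names were found. At 25°C 2 of 3 were called lower, beside 38% of all genes. *mage-1* was at 1157 and 1081 in *nmad-1* and 1736 and 2050 in WT (log2 fold change −0.75, limma adjusted p = 9e-04). *nse-4* was at 2305 and 2070 in *nmad-1* and 3082 and 2859 in WT (−0.44, adjusted p = 0.0049). *nse-1* was at 1783 and 1464 in *nmad-1* and 1889 and 1908 in WT and did not pass (−0.23, adjusted p = 0.11). The genes of the same complex thus had fold changes between −0.76 for *smc-5* and −0.23 for *nse-1*.

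The other SMC subunit genes, those of cohesin, condensin and the dosage compensation complex, were called lower in 5 of 5 cases with a median of −0.57, and *mix-1*, a condensin SMC gene, had the smallest p (3756 and 4099 in *nmad-1*, 6348 and 6154 in WT, log2 fold change −0.67, limma adjusted p = 0.00055). Of the end resection genes 4 of 5 were found and 4 of 4 were called lower with a median of −0.51, led by *rad-50*, a broken-end binding ATPase related to the SMC proteins (4282 and 4475 in *nmad-1*, 7492 and 7216 in WT, −0.75, adjusted p = 0.00033). Of 12 genes that process joint molecules, 10 of 12 were called lower with a median of −0.46, led by *brd-1*, the partner of *brc-1* (1176 and 1033 in *nmad-1*, 2108 and 1986 in WT, −0.89, adjusted p = 0.00038). No list had a gene called higher at 25°C with the deposited scaling, and no gene of these lists was called at 20°C, where 0 genes of the lists had an unadjusted p under 0.05 in limma. Over all genes, 38% were called lower and 32.8% higher at 25°C. At 20°C 0.481% of all genes were called, and 844 of 12260 had an unadjusted p under 0.05.

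The lists depended on the scaling too. With the same total outside ribosomal RNA at 25°C, 3 of 11 genes of repair synthesis were called lower and 2 of 12 genes of joint molecule processing were called higher, and no gene of the other 4 lists was called, where 48.9% of all genes were called higher and 5.83% lower. On the germ cell development genes 8 of 12 joint molecule genes, 3 of 4 end resection genes, 3 of 11 repair synthesis genes, 2 of 3 partners and 2 of 5 other SMC genes were called higher and none lower, beside 65.6% of all genes higher, and the meiotic MutS genes were not called. Of the 7 genes 1 was called higher on that scale. With the same total outside ribosomal RNA the list medians were between −0.23 for the meiotic MutS genes and 0.13 for the SMC-5/6 partners, beside 0.48 over all genes. The SMC-5/6 partners together were at 324 and 279 ppm in *nmad-1* and 286 and 270 ppm in WT at 25°C, and at 256 and 276 ppm in *nmad-1* and 264 and 262 ppm in WT at 20°C.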

How the data were processed

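Alignment by the authors was to WS220 (ce10) with Bowtie2 2.2.9, followed by RSEM 1.3.0 and EBSeq, with versions from the submitters' processing notes. The deposited signal is an expected count per gene divided by a size factor, in 1 table per temperature. That these are scaled counts was read from the values: 90.6% to 91.9% of those above 0 were whole multiples (tolerance 0.01) of the value of 1 read, too few for the count test the methods name, so none was run. Columns were assigned to groups by the comparison the descriptions name; A and B only tell libraries apart. The 6 deposited columns of the authors' own comparisons (fold changes and probabilities) were not used.

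Genes with a mean of at least 10 were tested with limma 3.58.1 (R 4.3.3) on log2(value + 1), with a variance trend, no covariates and Benjamini-Hochberg adjustment over all genes, at 0.05; fold changes are on this scale. P-values measure only the spread between these samples. The 2 libraries of a group differed by more than sampling noise (chi-square per degree of freedom 22.7 to 107). Ratios were tested by exact permutation of libraries. The code was tested on simulated data. Alternatives were pseudocounts of 0.5 and 10, no filter or a mean of 100, 4 other scalings, no trend, and each library left out.

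The genes named are the 7 genes, *nmad-1*, every SMC-5/6 partner and meiotic MutS gene, the smallest p of each other list, the 5 nearest profiles, and overlapping neighbours. A few marker genes were also named, after their values were seen. The genes and lists were chosen with earlier results of these data known. Names, chromosomes and coding lengths come from WBcel235, another build than WS220, so no coordinates are given. Promoter sequences were not analysed here.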

Additional observations from a re-analysis of the deposited data

How the results depend on the processing

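No paired analysis was possible because the columns carry no replicate numbers. At 25°C the count of the 7 genes called was 1 (*mlh-1*, higher) with the same total (over all genes 6029 higher and 770 lower), with the same total outside ribosomal RNA and on the germ cell development genes. The fold change of *mlh-1* was then 0.31, 0.31 and 0.50, and it was not called with the upper quartile (adjusted p = 0.62 in limma), without the trend (0.12) or without *nmad-1* library B (0.071), WT library A (0.12) or WT library B (0.18). On the germ cell development genes the others turned to 0.18 (*msh-2*), 0.039 (*msh-6*), 0.11 (*pms-2*), 0.16 (*exo-1*), 0.0022 (*smc-5*) and 0.072 (*smc-6*). At 20°C, calls among the 7 genes changed with the library left out. The fold changes that turned there were 0.022 for *msh-6* (upper quartile), 0.019, 0.15, 0.048 and 0.11 for *msh-2*, *msh-6*, *exo-1* and *smc-6* (same total outside ribosomal RNA), 0.043, 0.18, 0.073 and 0.14 (germ cell development genes), 0.14, 0.16, 0.042 and 0.095 (without *nmad-1* library A), and −0.23 for *mlh-1* (without library B, where *msh-2*, *msh-6*, *exo-1* and *smc-6* were at −0.54, −0.30, −0.39 and −0.31). In the interaction, calls also changed with the library left out. The values of *msh-2*, *mlh-1*, *pms-2*, *exo-1* and *smc-5* turned to 0.13, 0.22, 0.16, 0.081 and 0.016 with the same total, and to 0.14, 0.22, 0.16, 0.083 and 0.018 on the germ cell development genes, and *mlh-1* to 0.057 with the same total outside ribosomal RNA. Over all genes, the count called at 20°C was 24 (pseudocount 10), 1 (no filter), 2 (upper quartile), 2 (same total), 0 (same total outside ribosomal RNA), 0 (germ cell development genes) and 1 (no trend), and 5 to 4180 with a library left out. The interaction called 1774 genes with the same total and 4 without the trend, and 40 to 5827 with a library left out. Other causes than the scaling itself were not tested. Of 91 fold changes under alternatives at 25°C, 65 kept direction and call, 17 lost the call and 9 turned; at 20°C these were 71 kept, 6 gained a call and 14 turned. The partner ratios kept their sign under every alternative run, though that of *msh-2* to *msh-6* at 20°C lay mostly in *nmad-1* library A.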

Other observations

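Among 7148 genes whose mean reached 100 in both tables, the 5 whose centred profile over the 8 libraries was nearest to the mean profile of the 7 genes were *athp-1* (root mean square distance 0.011 on the log2 scale), *C16A11.2* (0.018), *hmg-3* (0.021), *ect-2* (0.021) and *dnj-5* (0.023), where the median over all these genes was 0.15. Of the 7 genes themselves, *mlh-1* lay farthest from their mean profile at 0.145, and the others lay at 0.048 to 0.078.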
